A study of Mus musculus with 9 samples.

Results

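The regions described here are the KRAB zinc-finger gene clusters near the distal ends of mouse chromosomes 2 and 4. Members were all repeat copies of the count table that began at 174.5 Mb to below 178.5 Mb of chromosome 2, or at 145 Mb to below 148 Mb of chromosome 4, on the mm10 assembly. The rule gave 2107 copies in the chr2 cluster and 1986 in the chr4 cluster, 4093 of 623916 copies in all. RNA had been sequenced from mouse embryonic stem cells (ESCs) of the C57BL/6 strain after feeder cells were taken off, with 3 libraries each of G4 Terc-/-, G1 Terc-/- and wild-type (WT) cells. Terc encodes the template RNA of telomerase, and telomeres shorten in successive generations of mice without it. G4 Terc-/- ESCs came from intercrosses of Terc-/- mice of the third generation (G3), G1 Terc-/- ESCs from intercrosses of heterozygous parents, and WT ESCs carried Terc. Line and generation cannot be told apart in this design, and nothing in the labels says that the 3 libraries of a group were separate cultures, so the spread behind each p-value may be technical. Library totals were 918879 to 1137257 counts.

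KRAB zinc-finger proteins bind DNA through arrays of C2H2 fingers and recruit the corepressor TRIM28, which in turn brings in the H3K9 methyltransferase SETDB1. Many of them recognise retrotransposons and keep them silent in ESCs. Their genes lie in tandem clusters that grew by duplication, and the clusters on chromosomes 2 and 4 are rodent-specific and hold many near-identical genes. The repeats between and inside those genes were duplicated along with them.

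Promoters of the genes are shown first because they set the clusters apart: the genes of a cluster share promoter sequence with each other, and little of it with the other cluster. Zinc-finger genes were taken as GENCODE genes whose coding transcripts hold at least 3 C2H2 fingers in an open reading frame, 40 in the chr2 cluster and 19 in the chr4 cluster. RefSeq promoters (GRCm38.p6, 250 bases before to 50 after the start) matched 29 and 13 of them. The sequences below are 300 bases each, 5′ to 3′ in the direction of the gene, for genes whose repeat RNA is described later. 2210418O10Rik (chr2:176226315-176226614, + strand) and Gm4631 (chr2:175338172-175338471, − strand) stand for the chr2 cluster, and Zfp985 (chr4:147553027-147553326, + strand), Rex2 (chr4:147021600-147021899, + strand) and Zfp933 (chr4:147848369-147848668, − strand) for the chr4 cluster. Capitals mark CCAAT (the CCAAT box), GGGCGG (the GC box) and GGAAGT (an ETS-type core) on either strand.
2210418O10Rik: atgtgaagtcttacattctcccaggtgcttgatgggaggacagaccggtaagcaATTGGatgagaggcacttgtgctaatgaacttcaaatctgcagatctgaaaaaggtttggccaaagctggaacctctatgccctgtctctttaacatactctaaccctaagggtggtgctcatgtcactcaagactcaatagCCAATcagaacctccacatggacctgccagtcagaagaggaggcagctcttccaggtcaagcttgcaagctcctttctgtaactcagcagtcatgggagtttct
Gm4631: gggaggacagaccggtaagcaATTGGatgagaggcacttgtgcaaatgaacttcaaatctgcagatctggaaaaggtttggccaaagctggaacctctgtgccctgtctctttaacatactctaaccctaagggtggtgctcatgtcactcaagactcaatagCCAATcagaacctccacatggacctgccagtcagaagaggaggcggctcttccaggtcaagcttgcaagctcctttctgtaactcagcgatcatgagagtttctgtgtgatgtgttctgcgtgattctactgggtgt
Zfp985: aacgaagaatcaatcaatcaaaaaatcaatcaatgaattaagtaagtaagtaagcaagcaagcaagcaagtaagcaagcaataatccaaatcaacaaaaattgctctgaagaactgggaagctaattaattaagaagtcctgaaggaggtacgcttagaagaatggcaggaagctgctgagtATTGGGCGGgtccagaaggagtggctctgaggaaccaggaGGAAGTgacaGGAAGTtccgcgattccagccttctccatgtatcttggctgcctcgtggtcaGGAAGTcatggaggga
Rex2: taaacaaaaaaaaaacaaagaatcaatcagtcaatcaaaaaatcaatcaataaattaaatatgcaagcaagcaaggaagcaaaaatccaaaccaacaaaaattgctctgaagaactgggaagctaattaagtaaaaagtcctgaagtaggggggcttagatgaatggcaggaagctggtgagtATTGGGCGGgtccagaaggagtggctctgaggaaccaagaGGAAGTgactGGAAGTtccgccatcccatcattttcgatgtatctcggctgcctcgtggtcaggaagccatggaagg
Zfp933: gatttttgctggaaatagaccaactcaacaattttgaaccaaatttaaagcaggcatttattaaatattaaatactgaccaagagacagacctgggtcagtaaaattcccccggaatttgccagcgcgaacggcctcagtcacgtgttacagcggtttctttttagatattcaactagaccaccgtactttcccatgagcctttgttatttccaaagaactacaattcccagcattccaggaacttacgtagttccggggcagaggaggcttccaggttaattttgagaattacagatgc

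CCAAT was found in 28 of the 29 chr2 promoters (96.6%) and in 12 of the 13 chr4 promoters (92.3%), against 37.4% of all 32851 promoters of the table. GGGCGG was in 0 of 29 chr2 promoters and 10 of 13 chr4 promoters (76.9%), against 35.7% of all. GGAAGT was in 1 chr2 promoter (3.45%) and 12 chr4 promoters (92.3%), against 23.8% of all. In Zfp985 and Rex2 the CCAAT match reads ATTGG on the printed strand and overlaps the GC box by 2 bases. TATAAA was in 0 promoters of either cluster and 13.6% of all. The run of 20 bases aaccctaagggtggtgctca stood in 27 of 29 chr2 promoters, and outside the listed genes only in that of Zfp972, another gene of the chr2 cluster. The run aagaactgggaagctaatta stood in 9 of 13 chr4 promoters and nowhere else among the 32851. Zfp933, at the distal end of the chr4 cluster, held none of the 3 motifs nor the shared run. The motifs and runs were chosen after the sequences had been read, and a match is a description of letters, not of a bound site.

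The repeats that carried most counts in the chr2 cluster were MTA_Mm-int and its long terminal repeat (LTR) MTA_Mm, MaLR elements that are known for their transcription in the mouse oocyte. The first 300 bases, in the element's direction, are shown of an MTA_Mm-int copy of the chr4 cluster that lies in an exon of the lincRNA Gm16211 (chr4:147668823-147669122, − strand, GRCm38), because such copies exist in both clusters. Capitals mark runs of at least 20 bases that are identical in the MTA_Mm-int copy of the last exon of 2210418O10Rik in the chr2 cluster.
MTA_Mm-int: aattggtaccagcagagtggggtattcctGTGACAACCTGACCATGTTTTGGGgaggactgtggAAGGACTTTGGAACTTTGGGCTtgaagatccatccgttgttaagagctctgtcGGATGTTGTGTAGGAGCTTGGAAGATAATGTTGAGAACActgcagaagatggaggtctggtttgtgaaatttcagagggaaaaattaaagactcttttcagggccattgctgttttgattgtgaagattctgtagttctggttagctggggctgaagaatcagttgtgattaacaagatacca

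Of the 605 bases of this copy that lie in the exon, 34.2% were in such shared runs. Sharing of this kind bears on single-copy values that are not whole, since such values come from reads divided among copies. Only 10.2% of the counts of the chr2 cluster and 19.7% of those of the chr4 cluster fell on copies with whole values in all libraries, against 64% elsewhere. Values of 27 of the 146 tested chr2 copies and 8 of the 135 tested chr4 copies equalled those of another tested copy of the same cluster in at least 5 libraries, to within 0.005 counts, so these copies are not independent measurements. Sums over a cluster or a window do not depend on how reads were divided within it. They do depend on how reads were divided between it and other places. In the chr2 cluster, copies with equal values in several libraries lay in different windows, so window sums are not independent either.

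LTR elements held 83.1% of the counts of the chr2 cluster and 59.9% of those of the chr4 cluster, against 32% elsewhere. LINEs held 14.6% and 21.3%, and SINEs 2.31% and 17.2%. In the chr2 cluster 78.2% of the counts lay between annotated genes and 6.55% in exons, whereas in the chr4 cluster 68.6% lay in introns, among them introns of the long noncoding genes Gm26573 and C230088H06Rik. Most copies were nearly silent: 1333 of 2107 in the chr2 cluster and 1064 of 1986 in the chr4 cluster had fewer than 5 counts over all 9 libraries. The filter on low counts left 146 and 135 copies for testing, with 79.4% and 67.9% of the counts of the clusters.

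The summed repeat RNA of both clusters was highest in G4 Terc-/- ESCs, lower in G1 Terc-/- ESCs and lowest in WT ESCs, and in neither cluster did the groups overlap. The chr2 cluster took 0.853%, 0.915% and 0.882% of the library counts in the G4 libraries, 0.589%, 0.612% and 0.587% in the G1 libraries, and 0.51%, 0.499% and 0.518% in the WT libraries. The chr4 cluster took 0.819%, 0.738% and 0.762% in the G4 libraries, 0.492%, 0.518% and 0.503% in the G1 libraries, and 0.439%, 0.419% and 0.45% in the WT libraries. The mean share was 1.74 times as high in G4 as in WT in the chr2 cluster (0.883% ± 0.031 against 0.509% ± 0.0094, SD, n = 3 each) and 1.77 times in the chr4 cluster (0.773% ± 0.042 against 0.436% ± 0.016). G1 stood 1.17 times above WT in the chr2 cluster and 1.16 times in the chr4 cluster. Each difference had p = 0.1 in a two-sided exact permutation test, the smallest value that 3 libraries against 3 allow. The ratio of the clusters to each other differed little between the groups over all copies, but not over those with whole values: log2 of the chr4 over the chr2 sum was −0.19 ± 0.13 in G4, −0.24 ± 0.018 in G1 and −0.22 ± 0.026 in WT, and G4 differed from WT by 0.03 (p = 0.8, exact permutation test). Against the counts of the rest of their own chromosome, the G4 shares were 1.5 times those of WT for the chr2 cluster and 2.05 times for the chr4 cluster. Among copies with whole values the G1 to WT ratio of the chr4 cluster was 1.03 (p = 0.7, exact permutation test), and that of the chr2 cluster was 1.29 (p = 0.1, exact permutation test). Over these copies log2 of the chr4 over the chr2 sum was 0.78 ± 0.046 in G4, 0.54 ± 0.077 in G1 and 0.86 ± 0.034 in WT, so that G1 was lower than WT by 0.32 (p = 0.1, exact permutation test) and G4 differed from WT by −0.08 (p = 0.2, exact permutation test).

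**Figure D1:**
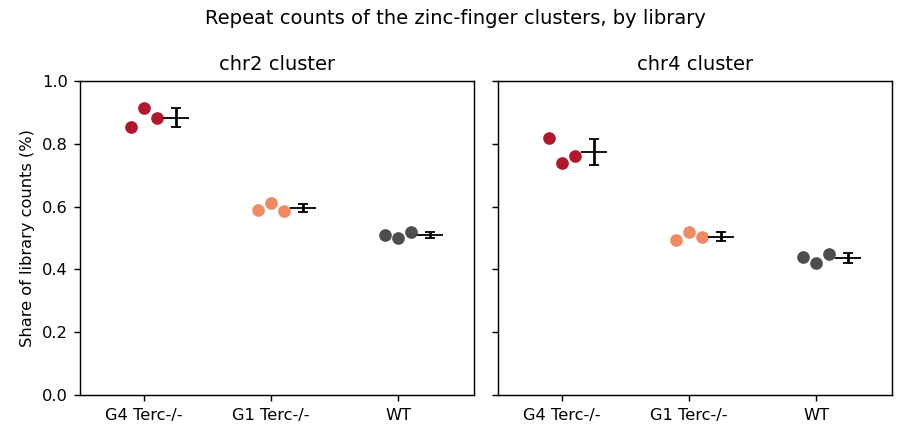
Share of library counts (%) taken by the repeat copies of the chr2 cluster (left) and the chr4 cluster (right); points are the 3 libraries of G4 Terc-/-, G1 Terc-/- and WT ESCs, and the bars give mean ± SD. The G4 libraries sit between 0.738% and 0.915%, above every G1 and WT library of the same cluster.

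The rise ran along the whole of both clusters. All 14 windows of 500 kb that make up the clusters rose in G4 against WT, with log2 fold changes of 0.43 to 1.01 over the 8 windows of the chr2 cluster and 0.35 to 1.22 over the 6 windows of the chr4 cluster. Over all 3959 windows tested, 24% were called higher and 22.5% lower, at a Benjamini-Hochberg adjusted p under 0.05 (quasi-likelihood test of edgeR). Windows of a cluster can hold parts of the same divided reads, so the 14 are not independent. Within the clusters the largest change was in the window at 146 to 146.5 Mb of chromosome 4, which held 3 zinc-finger genes: 1143, 1049 and 1056 CPM (counts scaled to the TMM library size) in G4, 509, 566 and 587 CPM in G1, and 459, 424 and 513 CPM in WT (log2 fold change of G4 against WT 1.22, SE 0.081, adjusted p = 2.89e-11, edgeR). For the chr2 cluster it was the window at 177.5 to 178 Mb, which held 4 zinc-finger genes: 1333, 1540 and 1463 CPM in G4, 873, 821 and 833 CPM in G1, and 712, 715 and 725 CPM in WT (1.01, SE 0.07, adjusted p = 5.91e-11, edgeR). In both windows the G4 libraries lay above all others. At 174.5 to 175 Mb of chromosome 2, where the window held 0 zinc-finger genes, the rise was the smallest of the chr2 cluster, with 98.5, 130 and 114 CPM in G4, 82.4, 85.4 and 101 CPM in G1, and 87.3, 89.2 and 78.9 CPM in WT (0.43, SE 0.16, adjusted p = 0.0289, edgeR). The chr4 window with 0 zinc-finger genes, at 145 to 145.5 Mb, rose by 0.79. There the last window, at 147.5 to 148 Mb, changed least (0.35, SE 0.065, adjusted p = 1.07e-04, edgeR), although it held 5 zinc-finger genes, Zfp933 among them.

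The rise did not stop at the limits. The window before the chr2 cluster, at 174 to 174.5 Mb, rose by 0.63 and the window before that fell by 0.57 on the log2 scale. Larger rises than in any window of the clusters stood nearby, at 172.5 to 173 Mb (2.0) and 179 to 179.5 Mb (1.70) of chromosome 2 and at 143.5 to 144 Mb (1.53) and 144 to 144.5 Mb (1.89) of chromosome 4. The windows beside the chr4 cluster rose by 1.08 at 144.5 to 145 Mb, where G4 libraries had 27 to 56.3 CPM and WT libraries 8.03 to 25 CPM, and by 0.37 at 148 to 148.5 Mb. The chr2 cluster lies 3.51 to 7.51 Mb and the chr4 cluster 8.32 to 11.3 Mb from the last annotated repeat of its chromosome. Among the other windows in the distal 20 Mb, 14 of 29 on chromosome 2 rose and 6 fell in G4 against WT (median 0.27), and 12 of 33 on chromosome 4 rose and 12 fell (median below 0.01). Elsewhere, 48 windows held at least 3 zinc-finger genes, of which 25 rose and 10 fell with a median of 0.24. The tested copies nearest to the limits are given as values with their coordinates, since some lay far from the limit. For 174.5 Mb they were an MTA_Mm copy inside (chr2:174962259-174962402, 0.63, not passing) and a MER21B copy in an intron of Nelfcd outside (chr2:174423116-174423299, 0.76). For 178.5 Mb they were an MTA_Mm-int copy inside (chr2:178065310-178066394, 0.66) and an MTE2a copy in Taf4 outside (chr2:179930575-179930950, −0.67, not passing). For 145 Mb they were an RSINE1 copy in an exon of Tnfrsf1b inside (chr4:145213526-145213692, 0.71, not passing) and a PB1D10 copy in an exon shared by BC080695 and Gm13057 outside (chr4:143557920-143558011). The PB1D10 copy had 28.6, 35.6 and 13.5 CPM in G4, against 0 CPM in every G1 and WT library. For 148 Mb an ID_B1 copy lay inside (chr4:147946397-147946522, −0.64, not passing).

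**Figure D2:**
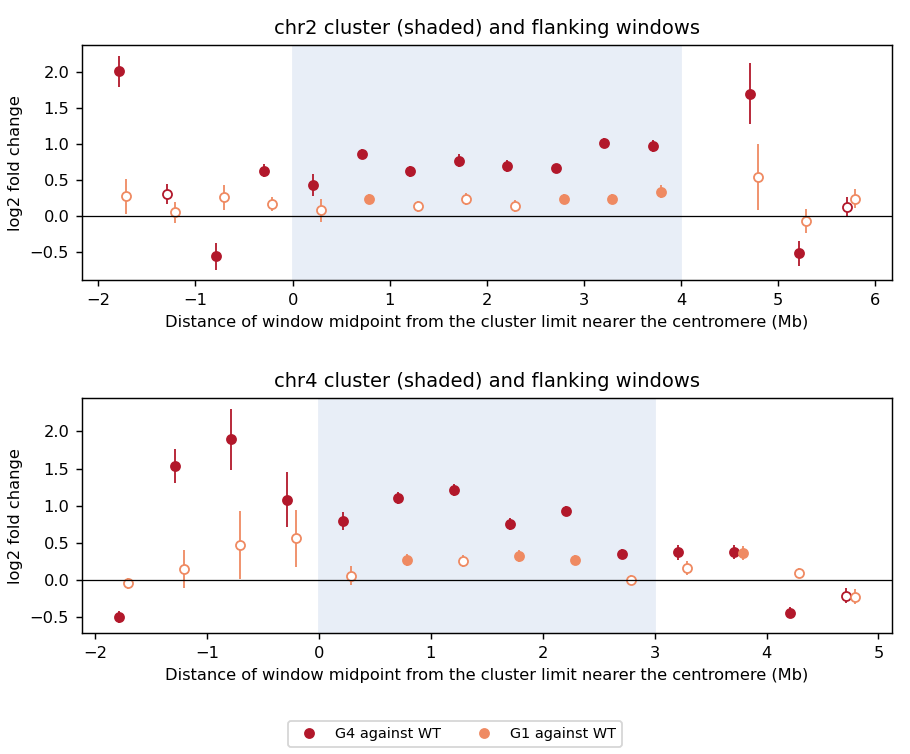
Log2 fold change (points) with its SE (bars) of summed repeat counts in windows of 500 kb, against the distance of the window from the cluster's first limit in Mb; the clusters are shaded, G4 against WT is dark red, G1 against WT is orange, and filled points passed an adjusted p under 0.05. All 14 shaded G4 points lie at 0.35 to 1.22, while the G1 points there stay at or below 0.33.

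At the level of single copies, 74 of 146 tested chr2 copies rose and 2 fell in G4 against WT, and 56 of 135 tested chr4 copies rose and 4 fell. Over all 13278 tested copies 21.3% were called higher and 21.3% lower (edgeR, adjusted p under 0.05). The median log2 fold change was 0.83 in the chr2 cluster and 0.66 in the chr4 cluster, against −0.03 over copies outside both. In the rest of chromosome 2 it was 0.05, with 218 of 996 tested copies higher and 153 lower, and in the rest of chromosome 4 it was −0.21, with 134 of 847 higher and 198 lower. Among copies with whole values in all libraries, 9 of 16 rose and 0 fell in the chr2 cluster and 11 of 25 rose and 1 fell in the chr4 cluster.

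The 6 largest rises of the chr2 cluster among copies averaging 10 or more counts were all MTA elements. The MTA_Mm-int copy in the last exon of Gm4631 (chr2:175322304-175323381, − strand), a zinc-finger gene, had 35.1, 65.2 and 45.7 counts in G4, 17.9, 9.21 and 13.7 in G1, and 3.23, 7.05 and 10.5 in WT (2.77, SE 0.37, adjusted p = 1e-06, edgeR). Copies 1.90 kb downstream of Gm4724 (chr2:175419861-175420938, 2.93) and Gm14434 (chr2:176470839-176471916, 2.11) held the same values in several libraries, so the 3 rises are in part the same reads. The others were an MTA_Mm-int copy at chr2:175090135-175091112 (2.41), an MTA_Mm copy in an intron of Gm14410 (chr2:177190134-177190534, 2.25) and an MTA_Mm copy downstream of Gm2004 (chr2:176140231-176140369, 2.10). The WT values of the MTA_Mm copy in Gm14410 were 0.38, 13.8 and 32.2 counts, and its adjusted p was 0.0502 with the Wald test of DESeq2. The 2 falls were an IAPEz-int copy (chr2:177156946-177163392, −2.0, adjusted p = 6.73e-04, edgeR), part of the IAP family of endogenous retroviruses, and an MTA_Mm-int copy downstream of Gm14406 (chr2:177565735-177566752, −1.54, adjusted p = 0.0113, edgeR). The IAPEz-int copy had 3.71, 7.52 and 3.73 counts in G4, 16, 5.66 and 9.58 in G1, and 21.8, 16.6 and 22.6 in WT. Its G4 and WT values did not overlap. The MTA_Mm-int fall was lost with the looser filter and without WT replicate 3, with an adjusted p of up to 0.0676 (edgeR).

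The copies with most counts in the chr2 cluster also rose. An ORR1A0-int copy 3.57 kb downstream of Zfp971 (chr2:178036696-178038485) had 289, 355 and 361 counts in G4, 193, 271 and 187 in G1, and 169, 154 and 194 in WT (0.88, SE 0.11, adjusted p = 4.79e-07, edgeR). MTA_Mm-int copies downstream of Gm2004 (chr2:176139153-176140230, 0.61) and in the last exon of 2210418O10Rik (chr2:176238772-176239857, 0.79) followed. In each of the 3 copies the lowest G4 count lay above the highest WT count, although G4 replicate 1 was the shallowest library.

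The largest rises of the chr4 cluster included several copies of RMER15, an LTR element. The RMER15 copy in an intron of the noncoding gene Gm26573 (chr4:146721294-146721572) had 190, 162 and 185 counts in G4, 46, 37.7 and 32 in G1, and 17.4, 27.3 and 18 in WT (3.04, SE 0.21, adjusted p = 6.84e-12, edgeR). The groups were fully apart, and G1 stood between G4 and WT. RMER15 copies at the 3′ ends of Rex2 (chr4:147060571-147060815, 2.51) and Gm13212 (chr4:145625116-145625415, 2.46) rose, as did an L1_Mus1 copy beyond Zfp990 (chr4:145541931-145543410, 3.03), a B2_Mm1t copy in an intron of Zfp978 (chr4:147388786-147388979, 2.54) and a B1F copy in an exon of Tnfrsf8 (chr4:145267508-145267648, 2.49). The RMER15 copies of Rex2 and Gm13212 also lie within the lincRNA genes C230088H06Rik and Gm26763 of the other strand. Whether counting used strand is not known, so their RNA cannot be assigned to either gene. The B2_Mm1t copy also lies within C230088H06Rik and Gm26624. Of the 3 copies with most counts, an RMER15 copy beyond Zfp978 (chr4:147392902-147393180, 1.75) and an L1_Mus1 copy beyond Zfp988 (chr4:147336674-147338153, 1.33) rose, and the MMVL30-int copy in Gm26573 (chr4:146937407-146940954) did not pass (−0.20, adjusted p = 0.179, edgeR). The RMER15 and L1_Mus1 copies among them lie in introns of C230088H06Rik and Gm26624. The 4 falls were in copies of RLTR6-int (−1.30), ORR1A3 (−1.04), L1MEg (−0.97) and MYSERV-int (−0.52). Their calls were lost in 0, 2, 1 and 6 of 15 alternatives in this order, and that of MYSERV-int without G4 replicate 1 or 2 or WT replicate 1 or 2. Without G4 replicate 3 ORR1A3 did not pass.

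**Figure D3:**
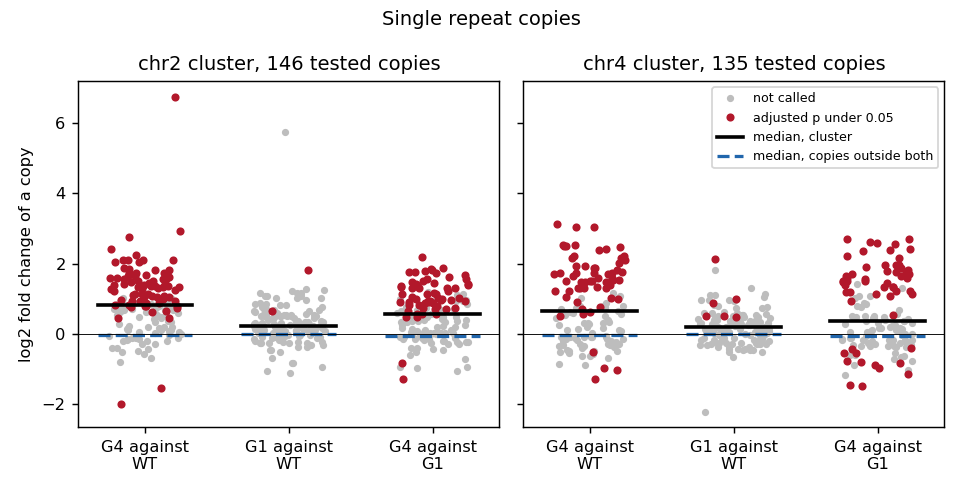
Log2 fold change of each tested copy of the chr2 cluster (left) and the chr4 cluster (right) in the 3 comparisons; red points passed an adjusted p under 0.05, grey points did not, the black line is the cluster's median and the dashed blue line that of copies outside both clusters. In G4 against WT the medians are 0.83 and 0.66, against −0.03 outside; the chr2 point above 6 is an MTA_Mm copy with under 1 count in each WT library, whose fitted value is no measure of size.

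Where the counts lay relative to the zinc-finger genes differed between the clusters. Distances were taken from the middle of a copy to the nearest 3′ end of a zinc-finger gene, positive downstream in the gene's direction. Of the 2107 chr2 copies 304 (14.4%) lay from 1 kb before to 5 kb beyond such an end, and they held 58.1% of the counts. Of the 304, 253 were on the strand of the gene. MTA_Mm-int, MTA_Mm, ORR1A0-int and ORR1A0 had 40, 69, 8 and 17 copies in this interval, at median distances of 1.90, 2.08, 2.76 and 2.51 kb beyond the annotated end, and 38, 67, 8 and 17 of them were on the gene's strand. Of the 1986 chr4 copies 113 (5.69%) lay in the interval with 21.5% of the counts, and 63 of them were on the gene's strand. There the element at the gene's end was RMER15: 14 of its 23 copies were in the interval, all 14 on the gene's strand and at different genes, and their median midpoint was 72.3 bp before the annotated end. The strand setting of the counting is not given in the sources used here, so the strand meant is that of the repeat, not of the RNA.

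Calls near and away from the gene ends in G4 against WT are read beside the 21.3% higher and 21.3% lower of all tested copies. Of 88 tested chr2 copies in the interval 51 rose and 1 fell (median 0.88), and 23 of 58 outside it rose and 1 fell (median 0.75). Of 34 tested chr4 copies in it 22 rose and 0 fell (median 1.48), and 34 of 101 outside it rose and 4 fell (median 0.46). Of the 18 tested RMER15 copies of the chr4 cluster 16 rose and 0 fell (median 1.69). The interval was chosen after the values had been seen, and the difference between near and far copies was not tested.

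**Figure D4:**
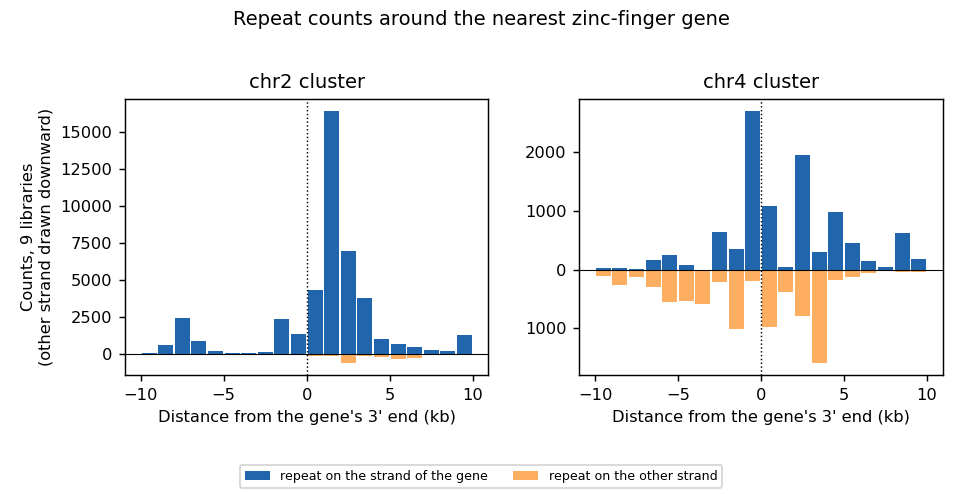
Counts summed over the 9 libraries in bins of 1 kb by distance from the nearest 3′ end of a zinc-finger gene (negative, inside or before the gene), for repeats on the gene's strand (blue, upward) and on the other strand (orange, downward). In the chr2 cluster the counts peak 1 to 2 kb beyond the end on the gene's strand; in the chr4 cluster the tallest bin is the last 1 kb before the end.

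For each zinc-finger gene, the repeats on its own strand in that interval were summed. The sums are reported without a test, and the genes were named after their values were seen. Sums of near-identical genes can hold parts of the same divided reads, so the genes counted below are not independent. Gm4724, which had the largest ratio, and Gm11007 both had 13.4 CPM in G1 replicate 2, and 15.6 CPM each in G1 replicate 3. At least 90 counts in all were found for 34 genes of the chr2 cluster, and for 30 of them the G4 mean was above the WT mean, with a median log2 ratio of 0.96 and a range of −0.38 to 2.79. Zfp971 had the most, with 586 CPM in G4, 370 in G1 and 301 in WT. Gm14401 followed with 406, 221 and 193 CPM, and Gm14325 with 310, 175 and 124 CPM. Gm14305 had 260, 102 and 84.8 CPM. The 4 genes with a ratio below 0 were Zfp968 (−0.38), Zfp966 (−0.29), Gm14409 (−0.13) and Gm14412 (−0.05), and Zfp965 was near 0 (0.10). The same number was reached by 13 genes of the chr4 cluster, and the ratio was above 0 in all 13, with a median of 1.64 and a range of 0.44 for Zfp534 to 2.58 for Zfp990. Zfp978 had 256 CPM in G4, 84.9 in G1 and 76 in WT, and Zfp982 had 65.2, 12.7 and 15.2 CPM. The Zfp978 value is that of the single RMER15 copy beyond this gene named above, so it is no separate result. The median log2 ratio of G1 to WT was 0.24 in the chr2 cluster and 0.07 in the chr4 cluster.

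Genes were tested by the repeats inside their exons. Of 21 genes of the clusters with enough exonic repeat counts, 15 rose and 2 fell in G4 against WT, where 24.4% of 4735 tested genes were called higher and 24% lower (edgeR, adjusted p under 0.05). The chr4 cluster gave 11 of the rises and both falls among 15 genes, and the chr2 cluster 4 rises among 6 genes. Of the zinc-finger genes 10 of 19 could be tested in the chr4 cluster, and 8 rose and 1 fell, and 5 of 40 in the chr2 cluster, of which 4 rose. Counting repeats anywhere in the gene body, 51 genes of the clusters could be tested, and 34 rose and 2 fell, where 20.8% of 10630 tested gene bodies were called higher and 19.3% lower. A copy was counted for every gene whose body held it, so overlapping genes repeat the same reads and are not independent. Gm26573, with 517 copies, spans Zfp600, Zfp981 and Zfp992, and C230088H06Rik and Gm26624 overlap each other.

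The 8 zinc-finger genes of the chr4 cluster that rose did so by 0.71 to 2.48 on the log2 scale. Zfp985 (ENSMUSG00000065999.13), whose single exonic repeat has whole values, had 101, 105 and 98.1 CPM in G4, 40.7, 30.3 and 31.6 CPM in G1, and 33.8, 41.7 and 32.6 CPM in WT (1.49, SE 0.19, adjusted p = 3.78e-09, edgeR). G1 and WT overlapped and G4 stood apart. Zfp992 had 209, 195 and 157 CPM in G4, 43.9, 63.3 and 57.6 CPM in G1, and 64.5, 57.3 and 65.2 CPM in WT (1.58, SE 0.16, adjusted p = 3.43e-12, edgeR). Rex2, a zinc-finger gene known for its expression in ESCs, had 49.1, 43.3 and 39.9 CPM in G4, 12.8, 10.1 and 24.8 CPM in G1, and 8.45, 4.17 and 10.6 CPM in WT (2.48, SE 0.35, adjusted p = 2.99e-08, edgeR). Here the G1 values lay between, with the lowest of them just below the highest WT value. Gm13212 (2.41), Zfp990 (2.39), Zfp600 (1.81), Zfp981 (1.32) and Zfp984 (0.71) rose as well, and Zfp980 did not pass (0.49, adjusted p = 0.117, edgeR). Over its gene body Zfp984 did not pass (0.12, adjusted p = 0.477, edgeR). The Gm13212 value, and most of the Rex2 value, came from the RMER15 copies at their 3′ ends named above, so these are not separate results. Zfp600, Zfp981 and Zfp992 lie within Gm26573, and Rex2 within C230088H06Rik, each on the other strand. Zfp933 went the other way, with 49.1, 57.5 and 53 CPM in G4, 67.4, 81.6 and 79 CPM in G1, and 80.3, 62.6 and 74.8 CPM in WT (−0.44, SE 0.19, adjusted p = 0.0426, edgeR). That fall was lost in 8 of 15 alternatives, the leaving out of G4 replicate 1 or 3 and of WT replicate 1 or 3 among them, with an adjusted p of up to 0.151 (edgeR or DESeq2).

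The other genes of the chr4 cluster moved less uniformly. Tnfrsf8, which encodes the receptor CD30, had 9.6, 15.9 and 25.2 CPM in G4, 12.8, 11 and 10.2 CPM in G1, and 7.4, 0 and 1.92 CPM in WT (2.44, SE 0.57, adjusted p = 3.53e-04, edgeR), and Tnfrsf1b, a receptor for tumour necrosis factor, rose by 0.65. Without G4 replicate 1 Tnfrsf1b had an adjusted p of 0.0504 (edgeR). The Tnfrsf8 value is that of the single B1F copy named above, so it is no separate result. The lincRNA Gm16211 rose by 0.38 and the lincRNA Gm20707 fell by 0.44 on the log2 scale, the second with an adjusted p of up to 0.0774 in the alternatives (edgeR), reached with library totals or without G4 replicate 2. Over its gene body Gm20707 did not pass (−0.10, adjusted p = 0.588, edgeR). Fv1, a gene of retroviral origin that restricts murine leukaemia virus, did not pass (−0.29, adjusted p = 0.115, edgeR).

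Of the chr2 genes, Gm4631 had 39.5, 68.1 and 44.3 CPM in G4, 21.4, 12.8 and 15.8 CPM in G1, and 4.23, 7.3 and 11.5 CPM in WT (2.69, SE 0.34, adjusted p = 1.49e-09, edgeR). Gm14443 had 114, 129 and 110 CPM in G4, 63.1, 66 and 63.2 CPM in G1, and 58.1, 45.9 and 48 CPM in WT (1.22, SE 0.17, adjusted p = 4.29e-08, edgeR). Both are zinc-finger genes, and in both all 3 groups were in the order G4, G1, WT with no overlap. Most of the Gm4631 value was the MTA_Mm-int copy of its last exon named above. The rise of that copy is in part the same reads as those downstream of Gm4724 and Gm14434, so it is no separate result. 2210418O10Rik (0.77, SE 0.12) and Gm14296 (0.67, SE 0.21) rose as well. Most of the 2210418O10Rik value was likewise the MTA_Mm-int copy of its last exon named above. Zfp970 (0.74, adjusted p = 0.186, edgeR) and Zfp972 (−0.18, adjusted p = 0.553, edgeR) did not pass.

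**Figure D5:**
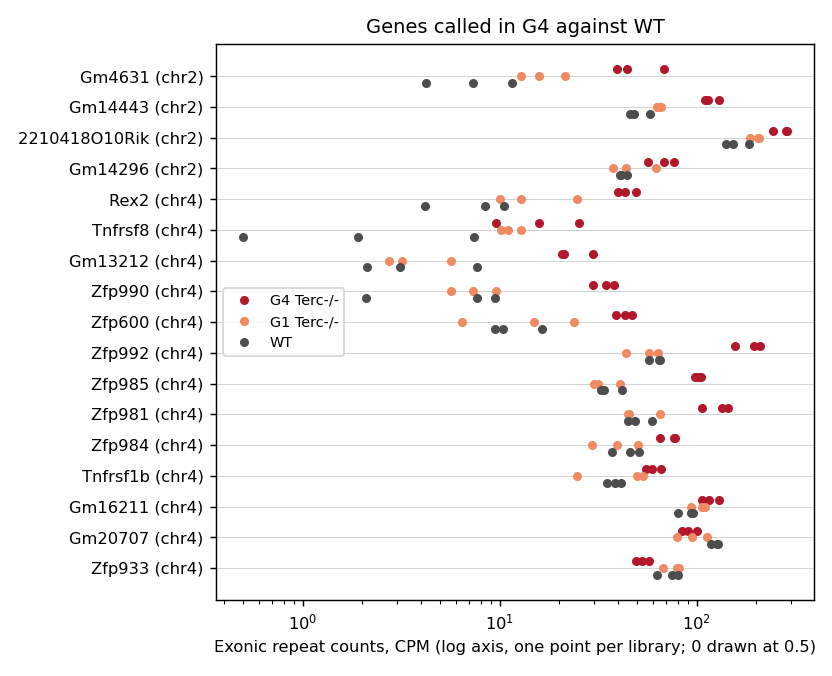
Exonic repeat counts in CPM (log axis) of the 17 genes of the clusters called in G4 against WT, with a point for each library of G4 Terc-/- (dark red), G1 Terc-/- (orange) and WT (grey) ESCs, and the chromosome in brackets. The G4 points lie right of the WT points for 15 genes and left of them for Gm20707 and Zfp933.

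Some repeat names moved differently inside and outside the clusters, and others alike. MTA_Mm-int of the chr2 cluster had 3095, 3719 and 3515 CPM in G4, 2227, 2106 and 2079 CPM in G1, and 1919, 1834 and 1857 CPM in WT (0.88, SE 0.056, adjusted p = 2.56e-11, edgeR). Its 1096 copies outside the clusters had 1823 to 2009 CPM in G4, 2192 to 2236 CPM in G1, and 2560 to 2734 CPM in WT, and fell by 0.44 on the log2 scale (adjusted p = 1.28e-07, edgeR). The cluster copies and the outside copies thus moved in opposite directions, and the log2 ratio of cluster to outside counts was higher in G4 than in WT by 1.32 (p = 0.1, exact permutation test, the smallest possible). The 12 MTA_Mm-int copies of the chr4 cluster rose by 0.89. RMER15 of the chr4 cluster had 1261, 1382 and 1355 CPM in G4, 640, 519 and 526 CPM in G1, and 464, 532 and 487 CPM in WT (1.43, SE 0.076, adjusted p = 7.66e-13, edgeR), whereas its 2040 outside copies did not pass (0.05, adjusted p = 0.367, edgeR). Over all 977 repeat names by place, 23.5% were called higher and 22.4% lower.

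Of the other leading names of the chr2 cluster, MTA_Mm (1.04), ORR1A0-int (0.33) and L1_Mus3 (0.35) rose in G4 against WT. Outside the clusters L1_Mus3 rose as well (0.23, adjusted p = 3.08e-04, edgeR), MTA_Mm fell by 0.10 on the log2 scale (adjusted p = 0.0498, edgeR) and ORR1A0-int did not pass (0.14, adjusted p = 0.0871, edgeR). Of those of the chr4 cluster, RMER6A (0.10, adjusted p = 0.399, and −0.01 outside the clusters), Lx3B (0.22, adjusted p = 0.0809) and MMVL30-int (−0.29, adjusted p = 0.0549, all edgeR) did not pass. MMVL30-int belongs to the VL30 family of virus-like elements, whose 290 copies outside the clusters fell by 0.68 on the log2 scale. Other names of the chr4 cluster rose, among them B2_Mm1t (1.09) and the LTR RLTR10F (1.58), named after their values were seen. In G1 against WT, MTA_Mm (0.33) and MTA_Mm-int (0.19) of the chr2 cluster rose while MTA_Mm-int outside the clusters fell by 0.25 on the log2 scale. In the chr4 cluster RMER6A (0.36), Lx3B (0.45) and MTA_Mm-int (0.46) rose in G1. There RMER15 (0.18, adjusted p = 0.189, edgeR) and MMVL30-int (0.25, adjusted p = 0.214, edgeR) did not pass. Of 77 tested names of the chr4 cluster 7 rose and 0 fell in G1. Over all 977 names by place 51 were called higher and 63 lower.

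G1 against WT compares Terc-/- cells of the first generation with WT cells. The paper reports slightly shorter telomeres in G1 than in WT ESCs. Loss of telomerase, telomere length and cell line cannot be told apart in this comparison. Few features passed in this comparison. Of the tested copies 2 of 146 in the chr2 cluster and 6 of 135 in the chr4 cluster rose and 0 fell, where 2.41% of all tested copies were called higher and 4.36% lower (edgeR, adjusted p under 0.05), and the medians were 0.23 and 0.19. With the Wald test of DESeq2 the counts were 0 and 0. Without G4 replicate 2 or 3 or WT replicate 3 the chr2 count was 1, and the chr4 count was 2 without any 1 of the G1 libraries or without WT replicate 2, and 1 without WT replicate 3. The named copies were an L1Md_F2 copy in the chr2 cluster (chr2:177297494-177298590, 0.66, adjusted p = 0.0285, edgeR) and, in the chr4 cluster, copies of RLTR6_Mm (chr4:146936829-146937406, 0.99), RMER15 (chr4:146721294-146721572, 0.88) and Lx3B (chr4:147241452-147243446, 0.52). Each of the 4 lost its call in 5 to 7 of 15 alternatives, among them the looser filter, the Wald test of DESeq2 and the leaving out of 1 or more of the G1 and WT libraries. Tnfrsf8 alone of the 21 genes was called (1.85, adjusted p = 0.0407, edgeR), and not with the replicate block, nor without G4 replicate 2 or 3, any G1 replicate, or WT replicate 2 or 3 (adjusted p of up to 0.207 over the alternatives, edgeR or DESeq2), in a comparison in which 4.58% of all tested genes were called higher and 6.5% lower.

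Windows showed the G1 difference more clearly than copies did, since each sums many of them. In G1 against WT 7 of the 14 windows rose and 0 fell, against 5.23% of all windows called higher and 7.6% lower. They were the windows at 175 to 175.5, 177 to 177.5, 177.5 to 178 and 178 to 178.5 Mb of chromosome 2 (0.23 to 0.33) and at 145.5 to 146, 146.5 to 147 and 147 to 147.5 Mb of chromosome 4 (0.27 to 0.32). Leaving out G1 replicate 2 left 1 of them, WT replicate 1 left 3, and G1 replicate 3 or WT replicate 2 left 4, by the same edgeR test. The last window of the chr4 cluster was level with WT (−0.002).

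G4 against G1 set the G4 libraries of the first comparison against the other Terc-/- group. The WT libraries still entered the filter, the scaling and the estimate of the spread. In the chr2 cluster 58 tested copies rose and 2 fell (median 0.57), and in the chr4 cluster 44 rose and 12 fell (median 0.37), where 19% of all tested copies were called higher and 19.2% lower (edgeR, adjusted p under 0.05). Of the 14 windows 13 rose, the exception being that at 174.5 to 175 Mb of chromosome 2 (0.35, adjusted p = 0.0744, edgeR), where 21.5% of all windows were higher and 19.4% lower. Of the 21 genes 11 rose and 1, Zfp933 (−0.51), fell, where 20.7% of all genes were higher and 22.3% lower. Zfp992 (1.76), Zfp985 (1.57), Zfp600 (1.55) and Rex2 (1.49) were among those that rose. Lx3B (chr4:147241452-147243446, −0.80) and RLTR6_Mm (chr4:146936829-146937406, −1.14), which had passed as higher in G1, were lower in G4 than in G1. They were picked on the same G1 libraries, which favours a lower value here. In G4 against WT neither Lx3B (−0.28, adjusted p = 0.122, edgeR) nor RLTR6_Mm (−0.15, adjusted p = 0.708, edgeR) passed.

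Zinc-finger genes outside the clusters and the partners of KRAB proteins are given for context. Of 234 tested zinc-finger genes elsewhere 72 rose and 36 fell in G4 against WT (median 0.25), beside 24.4% higher and 24% lower of all tested genes. In G1 against WT 8 of the 234 rose and 8 fell, beside 4.58% higher and 6.5% lower of all tested genes. Of 54 listed genes of the silencing machinery 24 could be read through exonic repeats. In G4 against WT 9 of these rose and 5 fell, beside the same 24.4% and 24%. Trim28, the corepressor, rose by 0.94 (adjusted p = 0.00789, edgeR), at 38.1 ± 6.77 CPM in G4 and 19.8 ± 6.37 CPM in WT (SD, n = 3 each), and Setdb1 did not pass (0.25, adjusted p = 0.121, edgeR). Suv39h1, another H3K9 methyltransferase, fell by 2.22 on the log2 scale, and Zfp809, a KRAB protein that binds retroviral primer binding sites, fell by 0.48. Smarcad1, a chromatin remodeller that associates with TRIM28, rose by 1.06.

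Markers of cell type moved with the groups. Over all tested genes 24.4% were called higher and 24% lower in G4 against WT, and 4.58% and 6.5% in G1 against WT. Of 15 ESC markers 6 could be tested through exonic repeats, and 5 rose in G4 against WT, among them Nanog, Tdgf1 and Tfcp2l1. Lin28a did not pass (−0.17, adjusted p = 0.0995, edgeR). The summed level of the 6 was 23010 to 26850 CPM in G4, 11580 to 12190 CPM in G1 and 7450 to 7902 CPM in WT. Most of it was Tdgf1, with means of 16540 CPM in G4, 6676 CPM in G1 and 4328 CPM in WT. Of 12 primitive endoderm markers 4 could be tested, and all 4, Gata4, Sox7, Pdgfra and Col4a2, fell in G4 and in G1 against WT, with a summed level of 105 to 128 CPM in G4, 1998 to 2127 CPM in G1 and 4526 to 4576 CPM in WT. Of 10 fibroblast markers 3 could be tested, with a sum of 120 to 128 CPM in G4, 88 to 112 CPM in G1 and 44.8 to 71 CPM in WT. Of 10 markers of 2-cell-like cells and 6 of trophectoderm, 0 passed the filter. The part of these differences in the values of the clusters was not tested, and in bulk RNA a change in the number of cells and one in RNA per cell cannot be told apart.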

How the data were processed

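RNA-seq of 9 ESC libraries was analysed. Per the labels and the study's methods, total RNA went through the TruSeq RNA kit, and FastQC 0.11.9, STAR 2.5.3a and featureCounts were used with mm10. The values are estimated counts per repeat copy, deposited by the authors before normalization. They are fractional where reads were shared, and how these were divided, and whether counting used strand, is not given in the sources used here. The authors' normalized table was not used. Column Control was taken as WT.

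Counts were summed over windows of 500 kb, GENCODE M21 genes (copies with at least 0.5 of their length in exons) and repeat names by place, and rounded. After the filterByExpr filter and TMM scaling, the quasi-likelihood model of edgeR 4.0.16 in R 4.3.3 was fitted to the 9 libraries, two-sided, and p-values were adjusted by Benjamini-Hochberg over each whole table. Standard errors were derived from the F statistic. Shares were compared by exact permutation over libraries.

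Copies named in the text were, for each cluster, up to 6 called copies each way by size of change (G4 against WT) and 3 (G1 against WT), from those averaging at least 10 counts, and the 3 with most counts. All called genes, up to 12 for a cluster and comparison, up to 6 silencing partners and 4 repeat names for each cluster were named. The members, lists and rules were chosen with earlier results of these data known. Alternatives were DESeq2 1.42.0 size factors and Wald test, library totals, a filter of 5 counts in all, a replicate block, fits of 2 groups, fold rules, other windows and overlaps, and leaving out each library. Depth was 918879 to 1137257 counts per library. A result on 1 copy outside the clusters is not reported here.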

Additional observations from a re-analysis of the deposited data

How the results depend on the processing

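Every direction of the cluster shares held in all alternatives. The log2 ratio of the shares, G4 over WT, ran from 0.587 to 0.838 for the chr2 cluster and from 0.758 to 1.04 for the chr4 cluster, and for G1 over WT from 0.208 to 0.372 and from 0.0477 to 0.254. The lowest G1 value of the chr4 cluster came from copies with whole values, which keep 19.7% of its counts. The difference between the clusters, near 0 over all copies, was −0.323 in G1 against WT and 0.243 in G4 against G1 with whole-valued copies, both at p = 0.1, the smallest of the exact permutation test, and it reversed in some settings: in G4 against WT it was −0.0798 with whole-valued copies and −0.0371 to 0.0887 when a library was left out, in G1 against WT it was 0.0317 outside exons, and in G4 against G1 it was −0.0208 to 0.105 when a library was left out.

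Copies called in G1 against WT numbered 1 in the chr2 cluster with the replicate block, 1 in the fit of only 2 groups, 0 by the Wald test of DESeq2, 1 with a fold over 2 and 12 at an unadjusted p under 0.05 with a fold over 2, and 1 to 3 when a library was left out. In the chr4 cluster they numbered 0 with the looser filter, 0 by the Wald test, 1 with a fold over 2, and 1 to 6 when a library was left out. In G4 against G1 the chr2 cluster had 35 calls with a fold over 2 and 39 at an unadjusted p with that fold. Copies called in G4 against WT stayed at 57 to 82 in the chr2 cluster and 48 to 63 in the chr4 cluster under all settings.

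Of the 14 windows, 3 passed a fold over 2 in G4 against WT under either p rule, and 0 in the other comparisons. With windows of 1000 kb, 8 of 8 were called in G4 against WT, 8 of 8 in G4 against G1 and 5 of 8 in G1 against WT, the smaller number being that of the windows. When a library was left out, 1 to 9 of the 14 windows were called in G1 against WT. With a fold over 2, 10 genes were called in G4 against WT under either p rule. Over gene bodies, where overlapping genes share copies, 36 genes were called in G4 against WT, 29 in G4 against G1 and 2 in G1 against WT. In G1 against WT 0 genes were called with the replicate block, in the fit of 2 groups or by the Wald test, 2 at an unadjusted p with a fold over 2, and 0 to 1 when a library was left out.

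Replicate numbers did not pair the libraries: the deviations of same-numbered libraries from their group means correlated at −0.0153 to 0.0209 over tested copies, and those of different numbers at −0.0327 to 0.0206. With the replicate block G4 against WT had 77 called copies in the chr2 cluster and 59 in the chr4 cluster, 14 windows and 16 genes. The named single copies and genes gave 585 values over the alternatives, of which 528 kept their call, 57 lost it and 0 changed direction. The cause of these changes was not tested.

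Depth limits single copies most: 1333 chr2 and 1064 chr4 copies had fewer than 5 counts in all.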
